A study of Mus musculus with 22 samples.

Results

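The mouse mitochondrial genome carries 37 genes, and all 37 were present among the 49671 gene identifiers of the series. They were taken by 1 rule, that the Ensembl identifier maps to a symbol starting with mt-, and they fall into 13 mRNA genes, 2 rRNA genes and 22 tRNA genes. All lie on chromosome M. They were read in 22 RNA-seq libraries of mouse cochlea: 11 ribosome immunoprecipitates (IP) and 11 input libraries of whole-cochlea RNA. All mice were PrestinCreERT2/+;RiboTagHA/+, and all had received tamoxifen, at 3 mg per 40 g of body weight under 21 days of age and 9 mg per 40 g from then on, so that age and dose cannot be told apart. The Cre is driven by the promoter of prestin, the motor protein of outer hair cells, and after tamoxifen it switches on a haemagglutinin (HA) tag on a cytosolic ribosomal protein. IP libraries hold RNA pulled down with an HA antibody, which the labels call translated mRNAs of enriched outer hair cells; input libraries had no antibody. Ages were P8, P14, P28, 6 weeks and 10 weeks, with 2 libraries of each kind per age and 3 at 10 weeks. The labels do not say how many cochleae were pooled in a library.

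Mitochondrial DNA is read from both strands into long transcripts, which are cut mostly at the tRNAs that lie between the other genes. The mRNAs encode core subunits of respiratory complexes I, III and IV and of ATP synthase; the rRNAs form the organelle's own ribosome, and the tRNAs serve that ribosome. These mRNAs are translated inside the organelle, whereas the HA tag is on ribosomes of the cytosol. Outer hair cells are the electromotile receptor cells of the cochlea. Fragments of mitochondrial DNA have also been copied into the nuclear chromosomes in evolution, and a read that matches such a copy exactly has no unique place in the genome.

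The libraries held 30757875 to 71023032 reads in all, and 14978013 to 39907763 reads counted to genes. The pulldown was checked on hair cell genes. Ocm, the outer hair cell calcium buffer oncomodulin, was at 288 ± 146 CPM (reads scaled to a library total of 1000000; SD, n = 11) in IP and 53.4 ± 31.7 in input, and Ikzf2, an outer hair cell transcription factor, at 52.3 ± 17.4 against 8.08 ± 2.79. Of 10 outer hair cell markers, 9 were higher in IP over all ages, beside 20.0% of all genes tested. Prestin itself (Slc26a5, 15.5 ± 17.0 against 4.41 ± 2.99 CPM) did not pass the test (limma, adjusted p = 0.111). IP and input libraries also differed in kind: reads outside genes were 20.2% to 47.7% of IP and 11.1% to 20.4% of input libraries, and reads aligned to several places 7.95% to 21.4% and 19.1% to 51.4%. One library stood apart. In the P8 input library 2, the predicted gene Gm42418 alone took 58.3% of the gene reads, against 1.22% to 18.6% in the other 21 libraries, and 51.4% of all reads were aligned to several places. The main values that rest on this library are given with and without it.

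Detection differed between mRNA genes by their position on the chromosome. Of the 13 mRNAs, 7 had reads in all 22 libraries: mt-Nd1, mt-Nd2, mt-Nd4, mt-Nd5 and mt-Nd6 of complex I, mt-Cytb of complex III and mt-Co1 of complex IV. The other 6, mt-Co2 and mt-Co3 of complex IV, mt-Atp6 and mt-Atp8 of ATP synthase, and mt-Nd3 and mt-Nd4l of complex I, had at most 1 read in each of the 16 libraries outside 10 weeks. These 6 are neighbours on the chromosome, from mt-Co2 at chrM:7013-7696 to mt-Nd4l at chrM:9877-10173, with only tRNA genes between them. The 7 detected mRNAs made up 99.97% to 100% of the mitochondrial mRNA reads of every library.

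The same stretch of chromosome M is present almost letter for letter in the nuclear genome. A search of the annotated nuclear transcripts for stretches of 50 or more bases identical to chromosome M found 7 pseudogenes side by side on chromosome 1, at chr1:24611535-24616197 on the minus strand. Together they hold 4149 annotated bases, of which 4133 lie in such stretches, and they match chromosome M between bases 6394 and 11042. Of mt-Co2 and mt-Nd4l, 100% of the bases lie in identical stretches, of mt-Co3 99.9%, of mt-Atp6 99.7% and of mt-Nd3 98.3%. Of the 7 detected mRNAs this share is lower: 74.9% for mt-Co1, 63.6% for mt-Nd4, 24.3% for mt-Nd5, 17.2% for mt-Nd2, 2.45% for mt-Cytb, and 0 for mt-Nd1 and mt-Nd6. The exception in the undetected block is mt-Atp8, with 21.1%. Only annotated transcripts were searched, so that sequence between the pseudogenes was not compared, and mt-Atp8 lies opposite such a gap. The shares count stretches on chromosomes 1, 2, 4, 5, 6, 11 and 13 and in a transcript without a listed chromosome. Stretches on any other nuclear chromosome are not in them, so a share of 0 does not exclude a match there.

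Sequences from GENCODE M21 transcripts on GRCm38 show how far the likeness goes. The 43 capitals in mt-Atp8 (chrM:7766-7969, plus strand) are bases it shares with mt-Atp6, which are also its only annotated match to the nuclear copy. The start of mt-Nd3 (chrM:9459-9658, plus strand) is shown with the 3 bases before its match to the pseudogene Gm28438 in capitals; the match covers 342 of the gene's 348 bases. The last pair shows the edge of the copy inside mt-Co1 (chrM:6381-6428, plus strand) beside the start of the pseudogene Gm29216 (chr1:24616150-24616197, minus strand), with the 6 bases that differ in capitals and identity from there on.
mt-Atp8: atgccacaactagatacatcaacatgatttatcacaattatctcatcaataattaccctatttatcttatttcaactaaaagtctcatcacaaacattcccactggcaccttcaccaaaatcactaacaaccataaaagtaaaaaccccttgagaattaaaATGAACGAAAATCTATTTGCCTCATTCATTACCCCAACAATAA
mt-Nd3: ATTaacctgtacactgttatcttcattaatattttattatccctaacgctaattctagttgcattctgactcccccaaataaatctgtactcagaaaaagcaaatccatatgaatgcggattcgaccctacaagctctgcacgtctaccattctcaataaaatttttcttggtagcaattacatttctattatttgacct
mt-Co1 stretch: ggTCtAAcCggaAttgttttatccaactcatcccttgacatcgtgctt
Gm29216 stretch: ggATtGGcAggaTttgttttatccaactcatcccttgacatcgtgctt

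**Figure D1:**
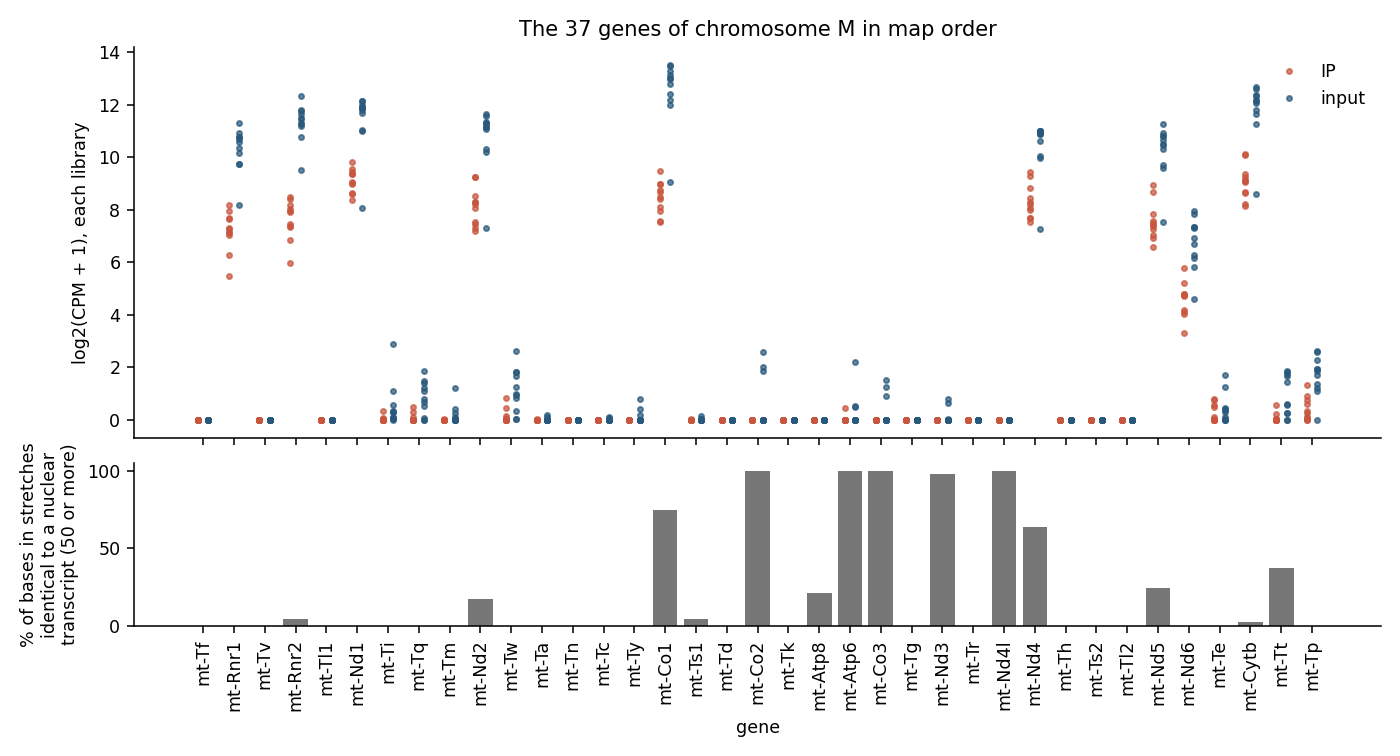
Upper panel: log2(CPM + 1) of each of the 37 genes in each of 11 IP (red) and 11 input (blue) libraries, in the order of the genes on chromosome M. Lower panel: percent of each gene's bases in stretches of 50 or more bases identical to an annotated nuclear transcript; the 6 mRNA genes from mt-Co2 to mt-Nd4l have values near 0 above outside the 10-week inputs and shares of 98.3% to 100% below, except mt-Atp8 at 21.1%.

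The 6 mRNAs of the block appeared in the input libraries at 10 weeks. mt-Co2 had 90, 197 and 101 reads in the 3 input libraries of that age, mt-Atp6 125, 16 and 14, mt-Co3 64, 54 and 29, and mt-Nd3 20, 0 and 24. mt-Atp8 and mt-Nd4l had no read in any of the 22 libraries. Summed, the 6 mRNAs had 299, 267 and 168 reads in the 10-week inputs, 13 in the 10-week IP library 1 (all mt-Atp6), 1 in a P14 input, and 0 elsewhere. In the same 3 input libraries mt-Co1 alone was at 9927 to 11590 CPM, against 0.874 to 4.94 CPM for mt-Co2 and mt-Co3.

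Reads of the nuclear copies were found in the same input libraries and in others. Summed over 6 of the 7 pseudogenes on chromosome 1, leaving out Gm28438, the 10-week inputs had 441, 335 and 200 reads. Of the other 19 libraries, the P14 input library 2 had 380 such reads and the rest 0 to 32. Gm28438, the copy of mt-Nd3, had reads in 20 of 22 libraries, with 1.43 ± 2.27 CPM in IP and 7.82 ± 6.15 in input (SD, n = 11; log2 change relative to the median gene -1.88 ± 0.40 SE, limma adjusted p = 0.000417). Gm28661, the copy of mt-Co2, was at 0.0873 ± 0.279 CPM in IP and 1.28 ± 2.13 in input. Gm13340, a pseudogene on chromosome 2 with up to 148 bases identical to chromosome M, was at 0.0536 ± 0.0693 and 1.34 ± 1.51 CPM. No IP library reached a CPM of 1 for either, so both entered the test through input libraries and no test of them is given. Whether a read of this block came from chromosome M or from chromosome 1 cannot be told apart from counts.

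Per length of gene, the detected mRNAs formed a steep order. In input the median level was 5134 CPM per kb for mt-Co1, 3936 for mt-Cytb, 3875 for mt-Nd1, 2169 for mt-Nd2, 1376 for mt-Nd4, 799.6 for mt-Nd5 and 229 for mt-Nd6, the mRNA encoded on the opposite strand to the others. In IP the order began differently, with mt-Nd1 at 551, mt-Cytb at 473, mt-Nd2 at 284, mt-Co1 at 233, mt-Nd4 at 214, mt-Nd5 at 93.6 and mt-Nd6 at 49.4. The 2 rRNAs, mt-Rnr1 (12S) and mt-Rnr2 (16S), were at 1586 and 1762 CPM per kb in input and at 159.8 and 150.0 in IP. If reads could count only outside identical stretches, mt-Co1 would be at 20445 CPM per kb in input and mt-Nd4 at 3777, so the place of these 2 genes in the order depends on how shared bases are treated. mt-Nd6 shares 14 bases with mt-Nd5 on the other strand, and whether counting used the strand is not given in the sources used here.

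Mitochondrial RNA of each class was less abundant in IP than in input. The 13 mRNAs took 0.258% to 0.750% of the reads counted to genes in IP libraries (median 0.429%) and 0.613% to 4.50% in inputs (median 3.43%). The rRNAs took 0.0171% to 0.147% in IP and 0.164% to 2.0% in input. The tRNAs took at most 0.000412% in IP and 0.00225% in input. In none of the 5 ages did IP and input libraries overlap in any of these 3 shares, and IP was the lower each time. On the deposited CPM scale, the summed mRNAs and the summed tRNAs overlapped at P8, and the rRNAs at no age. The share of the mRNAs also stayed lower at all 5 ages when Gm42418 was left out of the total.

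**Figure D2:**
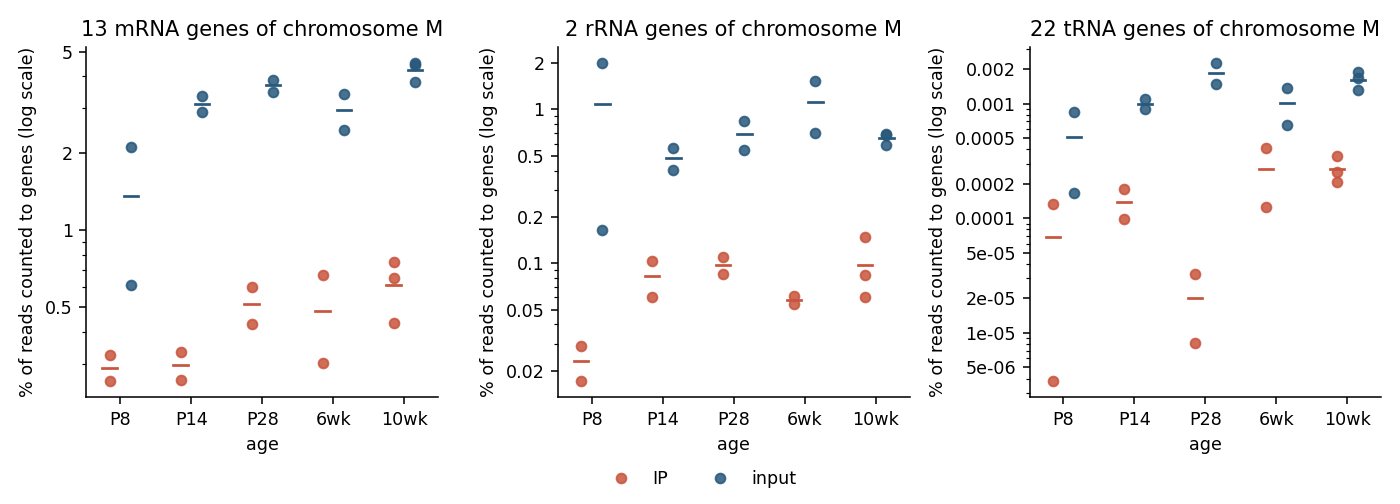
Percent of the reads counted to genes (log axis) that fall on the 13 mRNA, 2 rRNA and 22 tRNA genes of chromosome M, for each library by age; red points are IP, blue points input, and short lines the mean of 2 or 3 libraries. In each panel the red points lie below the blue points of the same age.

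Each gene was then tested on log2(CPM + 1) over all ages with limma, with p-values adjusted over the 18737 genes that reached a CPM of 1 in at least 2 libraries. Changes are given relative to the median of all genes, which was 0.13 on the log2 scale. Of the 37 genes, 17 were tested: 9 mRNAs, both rRNAs and 6 tRNAs. mt-Co2 and mt-Co3 reached the filter through input libraries, so their direction was fixed by it. The 6 tRNAs did so too, which favours a lower level in IP over all ages. Over all ages 7 of 9 mRNAs and both rRNAs were lower in IP, and no member was higher; 12.5% of all tested genes were lower and 20.0% higher. The median change was -2.38 for the tested mRNAs and -3.54 for the rRNAs. Without the P8 input library 2 these medians were -2.52 and -3.13. The median of all genes was then -0.03, and more of all genes were called lower than higher. With TMM scaling the calls over all genes were 4343 lower and 3809 higher in place of 2340 and 3747. The mRNAs called lower were then 8, the 7 detected ones and mt-Co2, whose direction the filter fixed. The lower direction of the 7 detected mRNAs and of both rRNAs held under every scaling and every left-out library tried. Fewer cells of a type and less RNA per cell cannot be told apart in bulk libraries.

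Among the mRNAs, mt-Co1, the catalytic core of cytochrome c oxidase, differed most between fractions. It ranged from 182 to 716 CPM in IP and from 532 to 11590 in input, with medians of 360 and 7933. The change was -4.16 ± 0.39 (SE), a 17.9-fold lower level (adjusted p = 1.97e-13). At P14 it was at 360 and 187 CPM in IP and 5397 and 7933 in input, at P28 at 425 and 244 against 8966 and 6977, and at 6 weeks at 507 and 182 against 8317 and 4588. At 10 weeks the IP libraries had 716, 506 and 270 CPM and the inputs 11418, 11590 and 9927. At P8 the IP libraries had 341 and 404 CPM, and the inputs 4034 and, in the library that stood apart, 532. No age showed overlap. mt-Co1 was the only mRNA of which this held; 0.256% of all tested genes were lower without overlap within any age.

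The other 6 detected mRNAs were lower by smaller factors. mt-Cytb, the cytochrome of complex III, ranged from 277 to 1097 CPM in IP and from 382 to 6424 in input, with medians of 542 and 4503 and a change of -2.82 ± 0.38 (adjusted p = 5.31e-08). mt-Nd1, a membrane subunit of complex I, ranged from 332 to 888 CPM (median 528) against 265 to 4522 (median 3708), with -2.38 ± 0.37 (adjusted p = 1.48e-06). Each overlapped between fractions at P8 alone, where the P8 input library 2 lay below both IP libraries. The complex I subunits mt-Nd5 (-2.78 ± 0.34), mt-Nd2 (-2.74 ± 0.34), mt-Nd6 (-2.28 ± 0.32) and mt-Nd4 (-2.21 ± 0.34) had adjusted p-values from 3.33e-09 to 1.38e-06. mt-Co2 and mt-Co3, with no read in any IP library, did not pass over all ages (adjusted p = 0.0798 and 0.307).

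Both rRNAs were lower in IP, over all ages and at each of the 5 ages. mt-Rnr2 ranged from 61.2 to 355 CPM in IP and from 725 to 5105 in input, with medians of 237 and 2787, a change of -3.85 ± 0.34 (adjusted p = 2.68e-14). mt-Rnr1 ranged from 43.3 to 285 CPM (median 153) against 288 to 2488 (median 1514), with -3.24 ± 0.32 (adjusted p = 5.10e-12). Neither overlapped between fractions within any age.

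Taken age by age, the number of mRNAs past the threshold varied, while their changes did not pass a test of variation between ages. At P14 7 of 9 were lower (median change -2.97; 2.64% of all genes were lower), at P28 5 (median -2.47; 5.17%), at 6 weeks 1, mt-Co1 (median -2.27; 0.0267%), and at 10 weeks 9 (median -2.79; 2.41%), which are all 7 detected mRNAs beside mt-Co2 and mt-Co3, whose direction the filter fixed. At P8 0 of 9 passed with limma (median -2.0; 0.0374% of all genes were lower), 2 had an unadjusted p under 0.05, and edgeR and DESeq2 on recovered reads each called 7, where they called 779 and 1565 of all genes lower. At P8 all genes together were shifted upward in IP by a median of 0.74, and the calls over all genes were 7 lower and 2179 higher, or 925 and 1105 with TMM scaling, which called 7 mRNAs lower. Without the P8 input library 2, 7 of 9 mRNAs were lower at P8 (2.06% of all genes) and mt-Co1 had a change of -3.38 ± 0.58 (adjusted p = 0.00262). At 6 weeks TMM scaling, edgeR and DESeq2 each called 7, and leaving out either P8 input library also gave 7. Both rRNAs were lower at every age, with changes from -2.31 (mt-Rnr1 at P14) to -5.0 (mt-Rnr2 at P8). Without the P8 input library 2, the P8 changes were -2.25 for mt-Rnr1 and -3.05 for mt-Rnr2, both still lower. With TMM scaling 1 of the 2 rRNAs was called at P28.

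These counts also rested on single libraries. At P14 the count was 1 without the IP library 1, the input library 1 or the input library 2, and 4 without the IP library 2. At P28 it was 2 without the IP library 2 or the input library 1, 3 without the input library 2, and 7 without a P8 input library. At 6 weeks it was 0 without the IP library 2 or the input library 1. At 10 weeks it was 2 without the IP library 3, 3 without the input library 1 or 2, 5 without the input library 3, and 6 without the IP library 1 or 2.

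**Figure D3:**
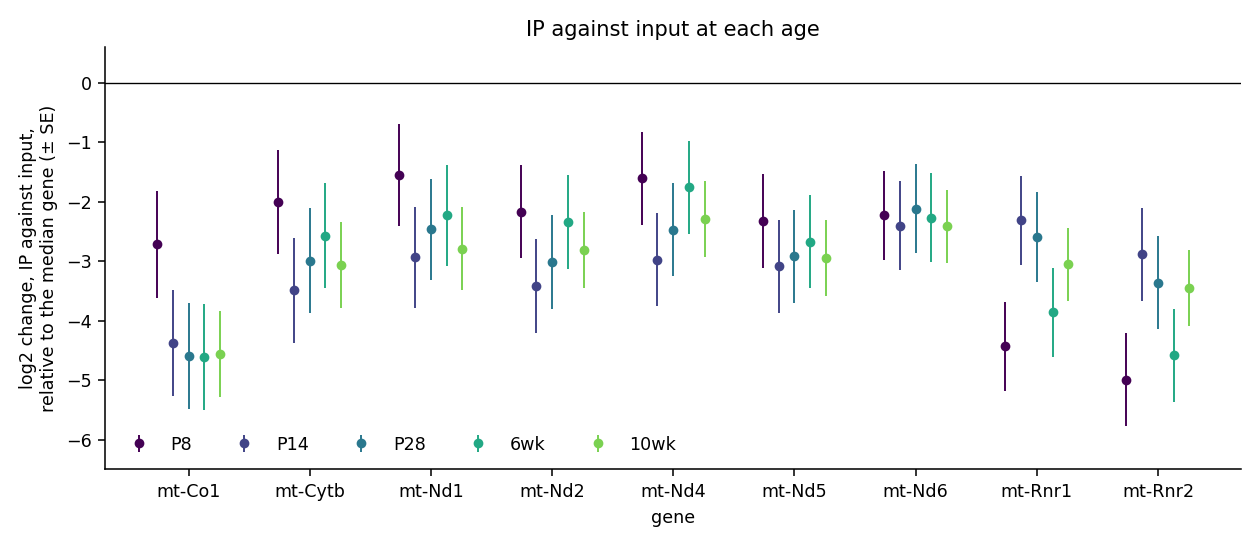
Log2 change of IP against input relative to the median gene (± SE of the fit) for the 7 detected mRNAs and 2 rRNAs, with 1 colour per age. All points lie below 0; mt-Co1 lies between -4.37 and -4.61 from P14 on and at -2.72 at P8. The lowest rRNA points, at P8, rest on the P8 input library 2; without it mt-Rnr2 is at -3.05 there.

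The tRNAs were counted at a handful of reads per library. 11 of 22 had no read in any library. The 22 together had 1 to 103 reads in IP and 33 to 766 in input libraries, beside 51292 to 166985 and 120462 to 1320960 mRNA reads. Per 100 mRNA reads this was 0.0388 tRNA reads in IP (median, range 0.00117 to 0.0811) and 0.0397 in input (0.0264 to 0.0580). IP and input overlapped in this ratio at P8, P14 and 10 weeks. Mature tRNAs are short, folded and modified, and such libraries recover few of them.

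A read on bases that neighbouring genes share cannot be assigned to 1 gene, and in the tRNA sequences below such bases are in capitals. Of the tRNAs whose levels are given here, 5 are printed from GENCODE M21 on GRCm38. They are the tRNAs for proline (mt-Tp, chrM:15356-15422, minus strand), threonine (mt-Tt, chrM:15289-15355, plus), tryptophan (mt-Tw, chrM:4950-5016, plus), glutamine (mt-Tq, chrM:3772-3842, minus) and isoleucine (mt-Ti, chrM:3706-3774, plus). mt-Tw shares 2 bases with mt-Nd2, and mt-Ti shares 5 with mt-Nd1 and mt-Tq.
mt-Tp: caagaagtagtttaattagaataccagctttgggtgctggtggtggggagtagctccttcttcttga
mt-Tt: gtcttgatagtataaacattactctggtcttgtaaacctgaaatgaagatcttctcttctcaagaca
mt-Tw: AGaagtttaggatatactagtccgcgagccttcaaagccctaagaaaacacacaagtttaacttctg
mt-Tq: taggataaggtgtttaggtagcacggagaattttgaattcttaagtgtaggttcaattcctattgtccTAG
mt-Ti: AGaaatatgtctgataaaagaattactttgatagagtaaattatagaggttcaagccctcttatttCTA

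mt-Tp was the most read tRNA. It ranged from 0 to 1.49 CPM in IP and from 0 to 5.09 in input, with medians of 0.186 and 2.62. At 10 weeks the inputs had 176, 203 and 128 reads of it and the IP libraries 24, 8 and 17. mt-Tw was at 0.120 ± 0.245 CPM in IP and 1.51 ± 1.51 in input, mt-Tt at 0.0655 ± 0.147 and 1.15 ± 1.09, and mt-Tq at 0.0632 ± 0.133 and 0.939 ± 0.856. mt-Ti had 274 of its reads in the P28 input library 2 and at most 63 in any other library. mt-Te, for glutamate, was at 0.219 ± 0.299 CPM in IP and 0.451 ± 0.717 in input. Its mean was the higher in IP at P8 (0.344 against 0.155 CPM), 6 weeks (0.409 against 0.159) and 10 weeks (0.294 against 0.226). At P14 (0.0111 against 0.695) and P28 (0 against 1.13) it was the lower. Since these tRNAs passed the filter on low values through input libraries, no test of single tRNAs is given.

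Relative to each other, the mRNAs were present in a different mix in the IP. mt-Co1 made up 16.0% ± 5.26 of the mitochondrial mRNA reads in IP and 35.6% ± 3.48 in input (SD, n = 11). It was the lower in IP at all 5 ages, with 21.7% and 19.2% against 30.9% and 31.4% at P8, and with 25.2%, 12.4% and 12.5% against 39.0%, 38.3% and 39.2% at 10 weeks. mt-Nd1 made up 24.4% ± 3.52 in IP and 16.4% ± 1.82 in input, and mt-Nd4 14.1% ± 2.27 and 8.27% ± 1.36; both were the higher in IP at all 5 ages. mt-Cytb (23.6% ± 2.49 and 21.2% ± 1.36) and mt-Nd6 (1.08% ± 0.423 and 0.736% ± 0.451) were higher without overlap at 3 ages each, and mt-Nd2 at 2. mt-Nd5 was lower without overlap at 1 age. These shares sum to 100%, so that a lower share of mt-Co1 raises the others, and no test was made of them. mt-Co1 and mt-Nd4 both lie partly in identical stretches, with 74.9% and 63.6% of their bases. In level both were lower in IP, with changes of -4.16 and -2.21 relative to the median gene. The part of shared bases in their shares was not tested.

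**Figure D4:**
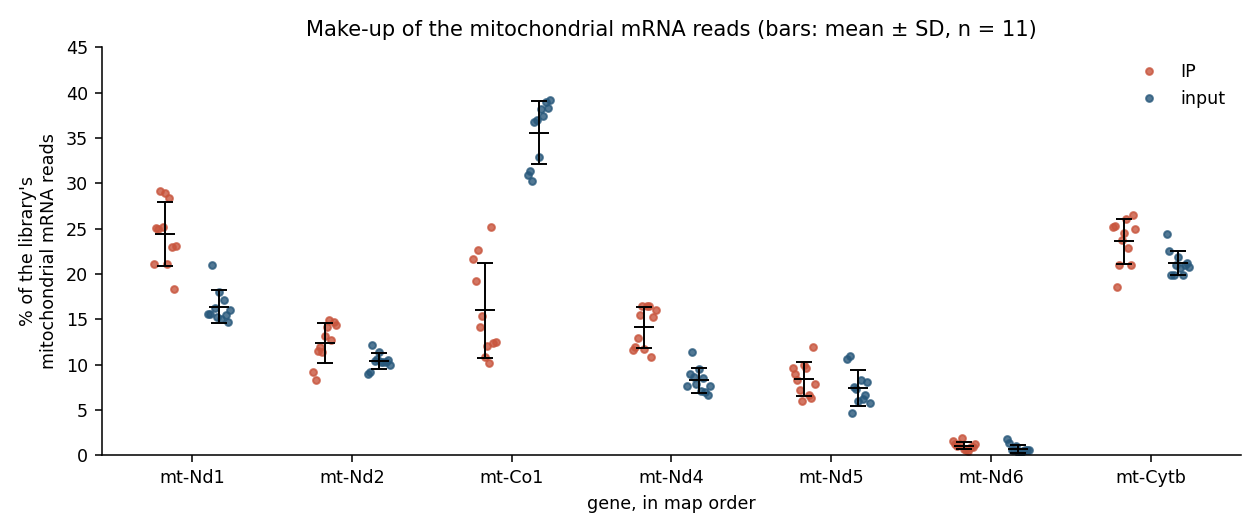
Percent of each library's mitochondrial mRNA reads on each of the 7 mRNAs detected in all libraries, in map order; red points are 11 IP and blue points 11 input libraries, and black bars show the mean ± SD. mt-Co1 is at 10.1% to 25.2% in IP and 30.3% to 39.2% in input, without overlap.

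3 ratios of genes within a library, which do not depend on the library total, were tested by exact permutation of the IP and input labels within ages. Of 25920 regroupings, the smallest two-sided p they can give is 7.72e-05. The ratio of mt-Rnr2 to mt-Rnr1 reads was 1.04 to 1.74 in IP (median 1.37) and 1.59 to 2.96 in input (median 2.05). It was lower in IP at all 5 ages, by 0.60 on the log2 scale (exact permutation p = 7.72e-05, the smallest possible; 0.000231 adjusted over the 3 ratios). The rRNAs are neighbours on 1 transcript, in the order mt-Rnr1, mt-Tv, mt-Rnr2. With 1 library left out at a time, the difference was -0.68 to -0.53.

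The ratio of light-strand to heavy-strand mRNA, mt-Nd6 to mt-Cytb, was 0.0219 to 0.0808 in IP and 0.0151 to 0.0719 in input. The difference of 0.49 on the log2 scale had an exact permutation p of 0.0494, or 0.0741 adjusted, and so did not pass. It passed without the P8 IP library 2 (adjusted p = 0.0439), the P28 IP library 2 (0.0416) or the P28 input library 1 (0.0322) in the same exact test.

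The ratio of rRNA to mRNA, as mt-Rnr1 to mt-Co1, was 0.127 to 0.998 in IP and 0.0713 to 3.66 in input. It was higher in IP without overlap at 3 ages and did not pass over all (0.92 on the log2 scale, exact permutation adjusted p = 0.191). The highest input value belonged to the P8 input library 2. Without that library the difference was 1.49 (exact permutation adjusted p = 0.00127).

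Within the inputs, the rRNA content followed that of Gm42418. Mitochondrial rRNA reads per mitochondrial mRNA read ranged from 0.0775 to 0.620 in 10 inputs and reached 3.26 in the P8 input library 2; in IP they ranged from 0.0664 to 0.309. On log scales, the ratio and the Gm42418 share of gene reads had a Pearson r of 0.992 and a Spearman rho of 1 over the 11 inputs (permutation p = 2.0e-05, the smallest the permutations can give; 4.0e-05 adjusted over the 2 relations). Without the 2 inputs farthest from the median Gm42418 share, r was 0.946. Over the 11 IP libraries r was 0.599 (permutation p = 0.0493) and rho 0.536 (p = 0.0934), and without the 2 farthest libraries r was 0.15, so that relation rests on those 2. Each age held at most 3 libraries of a kind, and no correlation is given within an age.

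**Figure D5:**
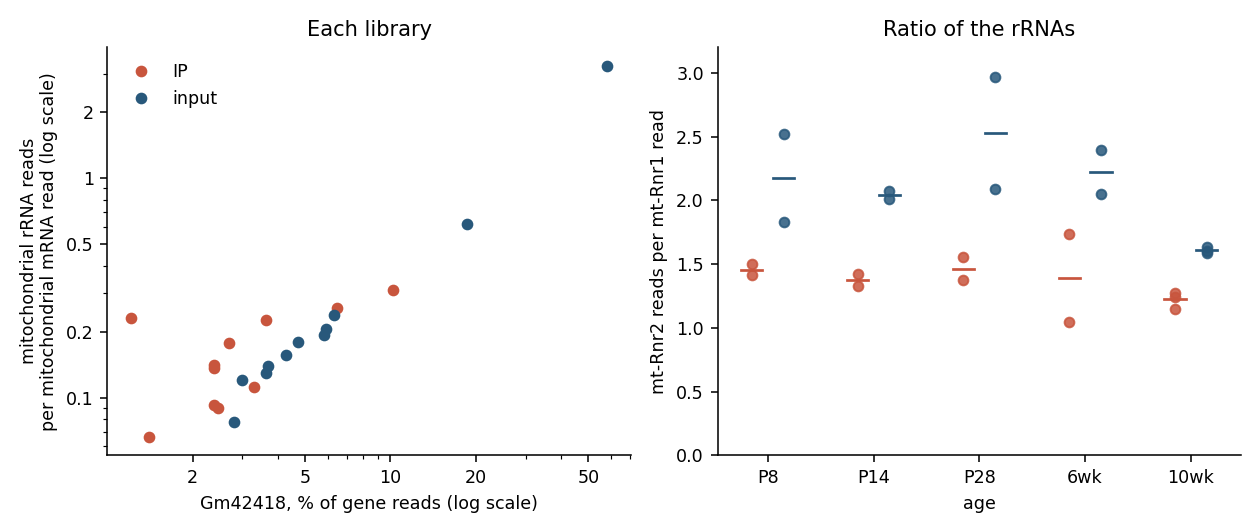
Left: mitochondrial rRNA reads per mitochondrial mRNA read against the percent of gene reads on Gm42418 in each library (both axes log); the P8 input library 2 is at 58.3% and 3.26. Right: mt-Rnr2 reads per mt-Rnr1 read by age, with short lines for means; the IP points (red, 1.04 to 1.74) lie below the input points (blue, 1.59 to 2.96) of the same age.

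Between P8 and 10 weeks, the calls for mitochondrial mRNA in whole cochlea rested on the P8 input library 2. From P8 to 10 weeks 7 of 9 mRNAs were higher in input (median change 1.42 relative to the median gene, which itself moved by 0.94), and 9.76% of all genes were higher. With TMM scaling 4 mRNAs were higher: mt-Nd1, mt-Nd2, mt-Co2 and mt-Co3. The calls over all genes were then 460 lower and 713 higher in place of 70 and 1829. The mRNA share of gene reads was 2.11% and 0.613% in the P8 inputs and 4.45%, 4.50% and 3.81% at 10 weeks. The changes were 1.96 ± 0.81 for mt-Co1 (adjusted p = 0.0142), 1.80 ± 0.72 for mt-Nd2 (0.00836) and 1.62 ± 0.78 for mt-Nd1 (0.0243, all limma). Without the P8 input library 2 they were 1.44, 1.29 and 1.09, and none of these 3 passed (limma adjusted p = 0.230, 0.123 and 0.151). mt-Co2 and mt-Co3, listed at 0 at P8, were among the 7 called. Their direction was fixed by the filter, which leaves 5 of the 7 detected mRNAs, or mt-Nd1 and mt-Nd2 with TMM scaling. The count was 1, mt-Co2, without the P8 input library 2, 9 without the P8 input library 1, 2 without the 10-week input library 1 or 2 and 4 without the 10-week input library 3.

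In the IP the same 9 mRNAs gave 0 calls from P8 to 10 weeks (limma), with 0 at an unadjusted p under 0.05, while 2.23% of all genes were higher and 2.15% lower. edgeR called 1 and DESeq2 2, and without either P8 input library limma called 1. The IP share of gene reads was 0.258% and 0.325% at P8 and 0.654%, 0.750% and 0.436% at 10 weeks, without overlap. The rRNAs had changes of 1.74 ± 0.68 (mt-Rnr1) and 1.49 ± 0.71 (mt-Rnr2) and did not pass (adjusted p = 0.125 and 0.230). Both passed without the P8 input library 1 (limma adjusted p = 0.00298 and 0.00722), without the P8 input library 2 (0.00291 and 0.00682) and when the P14 IP library 1 and the P28 IP library 2 were left out with the latter (0.00293 and 0.00808). Between P8 and 10 weeks 4 mRNAs and both rRNAs did not overlap in IP, as did 25.4% of all genes in this direction.

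The change of the IP to input difference from P8 to 10 weeks was tested directly. With limma, edgeR or DESeq2, 0 of 9 mRNAs passed, and 0.032% of all genes passed with limma. In limma 3 mRNAs had an unadjusted p under 0.05: mt-Co1, and mt-Co2 and mt-Co3, whose direction the filter fixed. A test for any difference between the 5 ages also gave 0 of 9 with each tool, and 0.016% of all genes passed with limma. In limma 1 mRNA, mt-Co2, had an unadjusted p under 0.05. Without the P8 input library 1, which leaves the library with 58.3% Gm42418 as the only P8 input, the counts were 9 and 8, and 43.3% of all genes were then lower in the former test. Without the P28 IP library 1 the latter count was 1.

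Few nuclear genes that replicate, transcribe, process or translate the mitochondrial genome passed the test. Of 97 genes listed under these roles, in 6 groups, 6 were lower in IP (6.19%) and 9 higher (9.28%), beside 12.5% and 20.0% of all genes. Their median change was -0.19. With TMM scaling 21 were lower and 9 higher, beside 23.2% and 20.3% of all genes. The counts also shifted when a P8 input library or the P28 IP library 1 was left out, as did the values of all genes. The median log2 change of all genes was -0.03 without the P8 input library 2 and 0.28 without the P8 input library 1. Without the P28 IP library 1 it was 0.10, and 0.13 in the reported fit. Genes named here were called in all 33 fits, the reported one included, unless said otherwise.

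None of 9 transcription genes passed over all ages. Polrmt, the mitochondrial RNA polymerase, was at 10.0 ± 4.57 CPM in IP and 9.10 ± 4.6 in input (adjusted p = 0.867). Of 10 replication genes, 2 were higher, the helicase Twnk (22.3 ± 12.9 against 11.5 ± 4.73 CPM) and the ligase Lig3 (30.5 ± 9.87 against 17.6 ± 7.91). Twnk kept its call in 15 of 33 fits and Lig3 in 14. Tfam, which packages the genome, was at 21.4 ± 9.55 and 21.0 ± 10.4 CPM (adjusted p = 0.596).

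Of 23 genes of RNA processing and stability, 2 were lower and 1 higher. Hsd17b10, a subunit of the RNase P that cuts at tRNA 5′ ends, was lower (10.8 ± 7.90 against 31.9 ± 11.7 CPM; change -1.92 ± 0.37, adjusted p = 8.84e-05), as was the oligoribonuclease Rexo2 (22.9 ± 12.4 against 64.3 ± 24.7; -1.49 ± 0.32, 0.000701). Fastk, of a family that acts on mitochondrial RNA, was higher (69.4 ± 13.4 against 33.8 ± 12.9; 1.07 ± 0.30, 0.00125). Lrpprc, which stabilises mitochondrial mRNAs, was at 25.6 ± 7.72 and 24.7 ± 9.79 CPM (adjusted p = 0.677).

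Of 15 genes in the list of translation factors, 3 were higher and 1 lower. Mief1 is counted by its place in this list and is not itself a translation factor. The higher ones were Guf1, a ribosome-binding GTPase (32.4 ± 13.4 against 10.6 ± 5.44 CPM; 1.43 ± 0.35, adjusted p = 0.000286), Mief1 (45.5 ± 21.4 against 21.4 ± 8.11; 0.98 ± 0.31, 0.00412), and the initiation factor Mtif2 (19.5 ± 4.89 against 11.3 ± 6.39; 0.86 ± 0.35, 0.0242), which kept its call in 28 of 33 fits. The lower one was the elongation factor Tufm, at 1.86 ± 1.73 and 4.72 ± 3.02 CPM (adjusted p = 0.0234), which is named for its call although its level is under the minimum of the naming rule, and whose call under the alternatives was not examined. Of 20 genes of tRNA and rRNA modification 1 was higher, Mettl17, a factor of the small ribosomal subunit (14.2 ± 5.21 against 4.81 ± 2.66; 1.28 ± 0.39, 0.00296).

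Of 20 aminoacyl-tRNA synthetases and their partners, which charge tRNAs, 2 were higher and 3 lower. Rars2 for arginine (15.9 ± 6.46 against 4.82 ± 3.81 CPM; 1.73 ± 0.40, adjusted p = 0.000145) and Wars2 for tryptophan (15.3 ± 7.92 against 4.30 ± 2.42; 1.55 ± 0.39, 0.000528) were higher. Yars2 for tyrosine (1.23 ± 1.39 against 5.16 ± 2.25; -1.75 ± 0.37, 0.000381) and Gatc, a subunit of the amidotransferase for glutamine (6.02 ± 5.02 against 15.4 ± 8.28; -1.54 ± 0.41, 0.00524), were lower. Lars2 for leucine was at 1776 ± 1406 and 4514 ± 5427 CPM (adjusted p = 0.0427) and kept its call in 14 of 33 fits; quantile normalization gave a log2 change of 0.02 (adjusted p = 0.970). Lars2 was highest, at 19661 CPM, in the P8 input library 2, next highest, at 8506, in the 6-week input library 2, and highest among IP libraries, at 5135, in the P14 IP library 1, the libraries with the highest Gm42418 shares of their fraction (58.3%, 18.6% and 10.2%). What of this is Lars2 mRNA was not tested.

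Markers of several other cell types of the cochlea were lower in IP beside the mitochondrial genes. Of all tested genes 12.5% were lower and 20.0% higher. Of 8 erythroid markers 6 were lower (summed level 54.6 to 499 CPM in IP, 65.0 to 1183 in input), of 9 neutrophil and macrophage markers 8 (19.6 to 77.3, 8.88 to 226), of 6 stria vascularis markers 4 (569 to 1207, 158 to 2661), of 6 neuron markers 4 (94.3 to 1219, 39.1 to 2701) and of 6 fibrocyte and mesenchyme markers 4 (2203 to 4602, 992 to 15840). Of 8 supporting cell markers 4 were lower and 1 higher (731 to 1272, 175 to 3414), and of 6 inner hair cell markers 2 and 1 (118 to 351, 24.3 to 216). Of 5 Schwann cell markers 1 was lower (934 to 4291, 329 to 11874) and of 6 striated muscle markers 2 (0.341 to 28.1, 0.436 to 47.9). No marker of these lists was at 0 in more than 5 of the 11 IP libraries. The part of these cells in the lower mitochondrial RNA of the IP was not tested.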

How the data were processed

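Per the labels' protocols, libraries were made with a directional kit from HA immunoprecipitates and input RNA; per the submitters' processing notes, TopHat aligned the reads to the build GRCm38. The counting tool, its use of strand, the treatment of reads with several places, and read length were not given in the sources used here. The authors deposited 1 table of CPM per library, in which 49671 identifiers of genes plus 5 nongene entries sum to 1000000. Reads outside genes took 11.1% to 47.7% of a library and reads aligned to several places 7.95% to 51.4%; these entries were in the deposited total and in no test. All values (100%) were whole multiples of 1 read within 0.01, so reads could be recovered, and 1 read equals 0.0141 to 0.0325 CPM. No 2 libraries held identical values. The design text gives independent biological replicates and names P21 where the labels name P28; the labels were followed.

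The filter kept 18737 genes that reached a CPM of 1 in 2 libraries or more. Their log2(CPM + 1) values were tested with limma 3.58.1 (R 4.3.3), a trended prior, 1 mean for each of 10 groups, two-sided, calling a gene where p after Benjamini-Hochberg adjustment across all tested genes was under 0.05. This scale understates the change of low genes. edgeR 4.0.16 and DESeq2 1.42.0 on recovered reads were alternatives. The limma step was tested on simulated data. Chromosome M was rebuilt from GENCODE M21 transcripts and compared with nuclear transcripts for identical stretches of 50 or more bases. The shares count only stretches on the nuclear chromosomes named in the Results and in a transcript without a listed chromosome. No genome was used. Named were all members, the check genes Slc26a5, Ikzf2 and Ocm, nuclear genes sharing 100 or more bases with chromosome M at a mean CPM of at least 1, and, per list of nuclear genes, up to 4 called changes each way at a mean CPM of at least 5. Polrmt, Tfam, Lrpprc and the other pseudogenes were named outside this rule, after their values were seen. Members and lists were chosen with earlier results of these data known. Alternatives were other pseudocounts, filters, scalings, tools and fits, a replicate block, and libraries left out.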

Additional observations from a re-analysis of the deposited data

How the results depend on the processing

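Under every alternative run, 7 or more mRNAs and both rRNAs were lower in IP over all ages. With no filter on low values mt-Co2 and mt-Co3 both passed too, with no read in any IP library. The rRNA changes between P8 and 10 weeks, not called in the reported fit, changed sign with the P8 inputs. In input they had a median of 2.21 without the P8 input library 2, with both called higher, and of -2.36 without the P8 input library 1. The change of their enrichment had a median of -0.56 and 4.07 in these fits, with 0 and 2 called. A further fit left out 3 libraries at once: P28 IP 2, P14 IP 1, P8 input 2. These had the fewest genes at a CPM of 1 (10870, 10810 and 9853), not the fewest reads. That fit kept 1 P8 input, and its median mRNA change at P8 was -2.73 relative to the median gene. The number of mRNAs called at P8 (0 reported) was 7 with TMM scaling, quantile normalization, edgeR or DESeq2. It was also 7 with CPM over gene reads without chromosome M genes and Gm42418, and 5 with CPM over gene reads. At 6 weeks (1 reported) it was 7 with TMM, CPM without chromosome M and Gm42418, edgeR, DESeq2, a fit of only the libraries compared, or without the 3 libraries, and 6 with quantile normalization or CPM over gene reads. With no filter on low values it was 0 at P14, P28 and 6 weeks, 4 at 10 weeks, 2 for input from P8 to 10 weeks, and 2 in each test of a change between ages. For IP from P8 to 10 weeks (0 reported) it was 4 with quantile normalization or CPM without chromosome M and Gm42418, 2 with DESeq2, and 1 with TMM, CPM over gene reads, edgeR or without the 3 libraries. For input over these ages (7 reported) it was 4 with TMM or quantile normalization, 3 with DESeq2 and 2 without the 3 libraries. It was 1 with edgeR or only the libraries compared. The 4 with TMM held mt-Co2 and mt-Co3, whose direction the filter fixed. The change of enrichment (0 reported) gave 1 with TMM, quantile normalization or CPM without chromosome M and Gm42418, and the test across ages 1 with quantile normalization. The cause of these differences was not tested.

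Leaving out 1 library at a time gave 0 to 7 mRNAs at P8, 1 to 7 at P14, 2 to 7 at P28, 0 to 7 at 6 weeks, 2 to 9 at 10 weeks, 0 to 1 for IP and 1 to 9 for input from P8 to 10 weeks, 0 to 9 for the change of enrichment, 0 to 8 across ages, and 11 to 25 nuclear genes of mitochondrial gene expression. The latter (15 reported) were 30 with TMM, 31 with quantile normalization or without the 3 libraries, 24 with edgeR or CPM without chromosome M and Gm42418, and 32 with DESeq2. The log2 ratio of mt-Rnr1 to mt-Co1 passed without the 3 libraries (1.37, exact permutation adjusted p = 0.00463) and ranged from 0.35 to 1.49 with 1 library left out; that of mt-Nd6 to mt-Cytb ranged from 0.32 to 0.65. Over all ages mt-Co2 passed in 7 alternatives and mt-Co3 in 1, with the direction fixed by the filter.

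Replicate numbers were not shown to pair the libraries: deviations of same-numbered IP and input libraries correlated by -0.02 at P8, 0.08 at P14, 0.04 at P28, 0.35 at 6 weeks, and 0.11, 0.19 and 0.22 at 10 weeks. With age and replicate number as a replicate block, the mRNA counts were 7 over all ages, 0 at P8, 7 at P14, 6 at P28, 1 at 6 weeks and 9 at 10 weeks. The log2 ratio of mt-Nd6 to mt-Cytb, 0.49, then passed (exact sign-flip permutation of the differences between same-numbered libraries, adjusted p = 0.0234). The block could not be fitted for comparisons between ages. Depth limits the tRNAs, which rest on 0 to 278 reads each in a library.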
